A study of Mus musculus with 8 samples.

Results

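The genes described here are 10 antioxidant enzyme genes of the mouse hippocampus, chosen by symbol: Gpx1, Gpx4, Prdx1, Prdx2, Prdx5, Sod1, Sod2, Cat, Nqo1 and Hmox1. They are 10 of the 19558 genes in the deposited table and hold 41 of its 74764 transcripts, which were summed per gene and also kept as single isoforms. All 10 genes and 33 of the 41 transcripts passed the filter on low counts. Poly(A)-selected hippocampal RNA was sequenced in 2 groups of 4 libraries, and the labels give n = 4 per group without saying whether each library came from a mouse of its own. The KU55933 mice were C57BL/6 KP animals of wild-type genotype at postnatal day 40, given 7.5 mg/kg KU55933 through the nose in small volumes while anaesthetised. KU55933 is a small molecule that blocks ATM, a protein kinase activated by broken DNA whose gene is mutated in ataxia telangiectasia. The vehicle mice shared strain, genotype, age, anaesthesia and route, and received 4% DMSO in saline without the inhibitor. An inhibitor given at this age to animals that carry intact Atm is a pharmacological model and not a loss of the gene, and the sources used here do not state how long after dosing the tissue was taken. All labels name the hippocampus, whereas the text on library preparation gives RNA amounts for hypothalamus and PFC.

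Superoxide dismutases turn superoxide into hydrogen peroxide. Catalase, the glutathione peroxidases and the peroxiredoxins then break down peroxides, the glutathione peroxidases at the expense of glutathione and most peroxiredoxins at the expense of thioredoxin. NQO1 and haem oxygenase 1 are inducible enzymes whose genes are classical targets of the transcription factor NRF2, which KEAP1 marks for degradation. ATM is itself activated by oxidation, and ATM-deficient cells are known for raised oxidative stress, so that the comparison of KU55933 with vehicle asks whether the mRNAs of this defence differ when the kinase is inhibited.

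The KU55933 libraries held 34190440 to 37499003 estimated counts and the vehicle libraries 40586998 to 46630341. The slope of expression on the exonic GC content of genes, in log2 units per 10 percentage points, was -0.279, -0.348, -0.117 and -0.120 in KU55933 1 to 4, against 0.136, 0.196, 0.273 and 0.260 in vehicle 1 to 4. The main results are therefore given also with an offset, which takes each library's own smooth trend on GC content and transcript length out of the fit. The 10 markers of choroid plexus, an epithelium that borders the hippocampus, summed to 1190, 1265, 78.6 and 61.6 CPM (estimated counts, each library scaled to a common total) in KU55933 1 to 4, against 55.1 to 117 in the vehicle libraries. The 6 markers of hippocampal excitatory neurons summed to 1896 to 2071 CPM in KU55933 and 2089 to 2482 in vehicle, and none of them was at 0. In bulk RNA, fewer cells of a type and less RNA per cell cannot be told apart. The p-values measure the spread between these libraries, which may be partly technical.

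The mRNAs of the glutathione peroxidases Gpx1 and Gpx4 and of peroxiredoxin 5 were lower in KU55933. Under the GC and length offset Gpx1 stayed called, Prdx5 did not pass (adjusted p = 0.618 from edgeR) and the direction of Gpx4 turned. The mRNA of peroxiredoxin 1 was higher, while Prdx2, Sod1, Sod2, Cat, Nqo1 and Hmox1 did not pass the test. Gpx1 fell 1.57-fold and Prdx5 1.41-fold, Gpx4 fell to 0.757 times its vehicle level, and Prdx1 rose 1.21-fold. With p adjusted over 15481 genes (edgeR's quasi-likelihood test, Benjamini-Hochberg), 4 of the 10 genes were called at an adjusted p under 0.05, against 21.6% of all genes. Of these, 1 was higher, against 6.92% of all genes, and 3 were lower, against 14.6%. The 2 groups did not overlap in CPM in 5 of the 10 genes, against 26.7% of all genes. The median log2 change of the 10 genes was -0.09, beside 0.01 over all genes tested. Under the GC and length offset 1 of the 10 genes was called, against 1.97% of all genes. This was Gpx1, which was lower (1.3% of all genes were called lower and 0.672% higher), and the median was -0.05. Without KU55933 1 and 2, the libraries with high choroid plexus markers, edgeR called 2 members, Gpx1 and Gpx4, both lower.

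**Figure D1:**
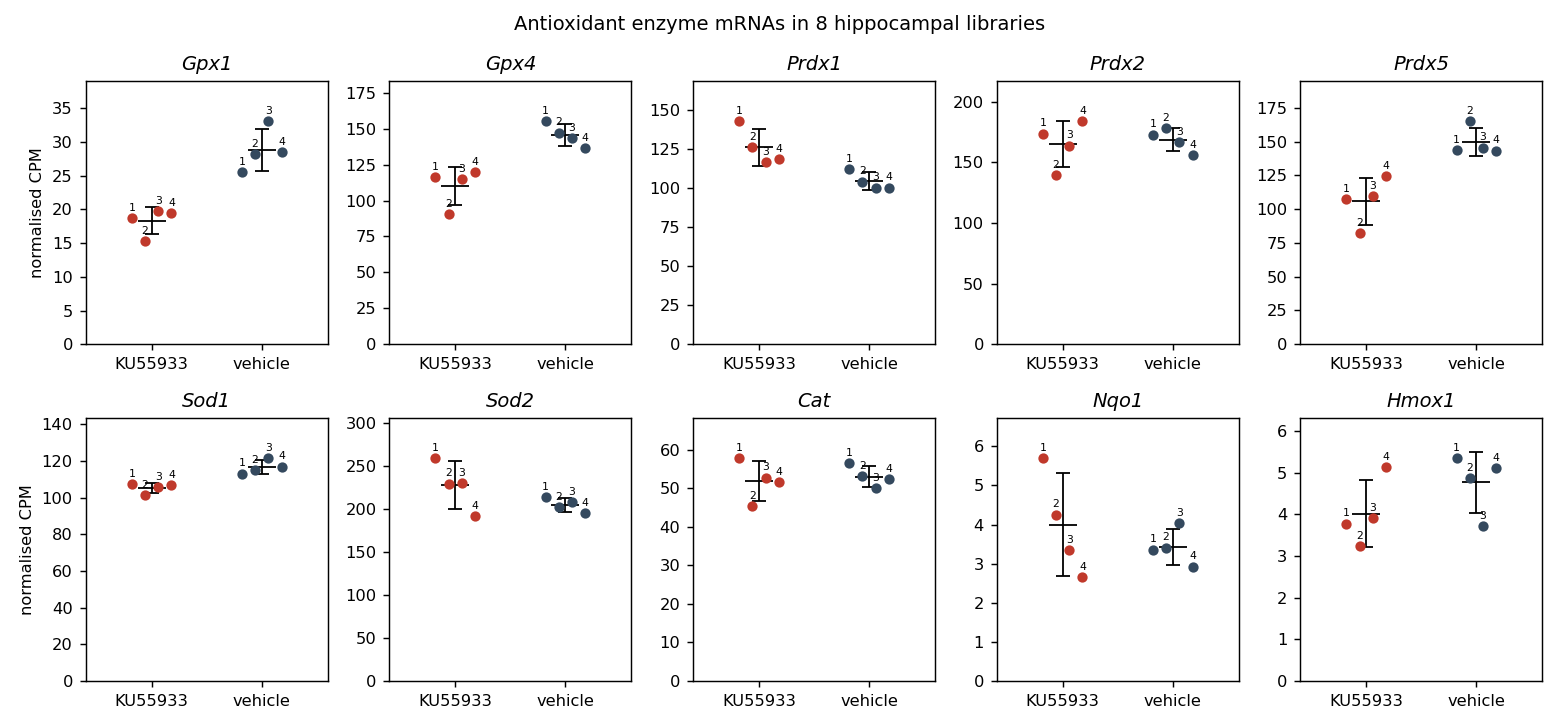
Normalised CPM of the 10 antioxidant enzyme genes in each of the 4 KU55933 libraries (red, left) and the 4 vehicle libraries (dark, right), with the library number above each point and the group mean and SD as bars. All KU55933 points lie below all vehicle points for Gpx1, Gpx4, Prdx5 and Sod1 and above them for Prdx1.

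Gpx1, on chromosome 9, encodes the main cytosolic glutathione peroxidase, a selenoenzyme that reduces hydrogen peroxide. It had 18.8, 15.4, 19.7 and 19.5 normalised CPM in KU55933 1 to 4, against 25.6, 28.2, 33.1 and 28.5 CPM in vehicle 1 to 4. All KU55933 libraries lay below all vehicle libraries. The means were 18.3 ± 2.02 CPM in KU55933 and 28.8 ± 3.13 CPM in vehicle (SD, n = 4 each), and the log2 change of -0.65 ± 0.11 (SE) had an adjusted p of 0.00237 from edgeR. Under the offset edgeR gave -0.37 ± 0.08 with an adjusted p of 0.0467, and Gpx1 was the only member called in both fits. That second call ended without KU55933 2, 3 or 4 or vehicle 2, 3 or 4 (adjusted p up to 0.14), and with an offset for GC content alone the adjusted p was 0.051.

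Gpx4, on chromosome 10, encodes the selenoenzyme that reduces lipid peroxides within membranes and so guards against ferroptosis. Its values were 116, 90.4, 115 and 120 CPM in KU55933 1 to 4, against 155, 147, 143 and 137 CPM in vehicle 1 to 4. KU55933 2 was the lowest library, and the groups did not overlap in CPM. The gene, of 57.8% GC, had a log2 change of -0.40 ± 0.09 (SE) and an adjusted p of 0.0137 from edgeR. Under the offset the change was 0.07 ± 0.09 (adjusted p = 0.724 from edgeR), so that its direction turned. Counts of the processed copy Gpx4-ps2 were 12 to 40 in KU55933 and 37 to 55 in vehicle.

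Among the peroxiredoxins, thiol peroxidases that use a reactive cysteine, Prdx5 fell, Prdx1 rose and Prdx2 did not pass. Prdx5, on chromosome 19, encodes the enzyme found in mitochondria, peroxisomes and cytosol. It had 107, 82.4, 110 and 124 CPM in KU55933 1 to 4, against 144, 165, 146 and 143 CPM in vehicle 1 to 4, without overlap. This gene of 57.1% GC changed by -0.50 ± 0.11 on the log2 scale (SE), at an adjusted p of 0.0127 from edgeR, and by -0.09 ± 0.08 under the offset (adjusted p = 0.618). Without KU55933 1 and 2 edgeR gave Prdx5 an adjusted p of 0.0538.

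Prdx1, on chromosome 4, encodes the abundant cytosolic peroxiredoxin and is a known NRF2 target. It had 143, 126, 116 and 119 CPM in KU55933 1 to 4, against 112, 104, 100.03 and 100.1 CPM in vehicle 1 to 4. The highest values were those of KU55933 1 and 2, which also had the high choroid plexus sums, and their part in the result was tested only by leaving those libraries out. Its GC content of 43.0% was the lowest of the 10 genes, and edgeR gave a log2 change of 0.27 ± 0.08 (SE) with an adjusted p of 0.0358. Leaving out KU55933 1 or 2 or vehicle 2, 3 or 4 ended the call (adjusted p up to 0.108), and without both KU55933 1 and 2 the log2 change was 0.18 (adjusted p = 0.169 from edgeR). Under the offset it was 0.12 ± 0.08 (adjusted p = 0.485).

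Prdx2, on chromosome 8, encodes the cytosolic peroxiredoxin that is abundant in neurons and red blood cells. It had 174, 140, 164 and 184 CPM in KU55933 1 to 4, against 173, 178, 166 and 156 CPM in vehicle 1 to 4, and the groups overlapped. The means were 165 ± 18.9 CPM in KU55933 and 168 ± 9.53 CPM in vehicle (SD, n = 4 each), and the log2 change was -0.03 ± 0.09 (SE), at an adjusted p of 0.848 from edgeR. The summed red blood cell markers, 5 genes led by haemoglobins, ran from 199.9 to 358 CPM in KU55933 and from 306 to 547 CPM in vehicle. Of these 5 markers 1 was called lower, and 0 under the offset. Their part in the Prdx2 values was not tested.

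The superoxide dismutases did not pass. Sod1, on chromosome 16, encodes the cytosolic copper and zinc enzyme. It had 107.4, 101.5, 106 and 107 CPM in KU55933 1 to 4, against 113, 115, 122 and 117 CPM in vehicle 1 to 4. These groups did not overlap, yet the log2 change of -0.15 ± 0.06 (SE) had an adjusted p of 0.103 from edgeR, and DESeq2 gave an adjusted p of 0.046. Under the offset the change of Sod1 was -0.06 (adjusted p = 0.664 from edgeR). Sod2, on chromosome 17, encodes the manganese enzyme of mitochondria and had 259.8, 229.8, 230.8 and 192 CPM in KU55933 1 to 4, against 214, 203, 208 and 196 CPM in vehicle 1 to 4. KU55933 4 was the lowest of all 8 libraries, and the other KU55933 libraries were above every vehicle library. The log2 change was 0.15 ± 0.09 (adjusted p = 0.235 from edgeR), it passed without KU55933 4 (adjusted p = 0.045), and under the offset it was -0.05.

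Cat, on chromosome 2, encodes catalase, the peroxisomal enzyme that splits hydrogen peroxide. It had 57.9, 45.3, 52.8 and 51.7 CPM in KU55933 1 to 4, against 56.6, 53.2, 50.04 and 52.3 CPM in vehicle 1 to 4. Its log2 change was -0.03 ± 0.08 (SE), at an adjusted p of 0.813 from edgeR, and -0.11 under the offset (0.536). The NRF2 target genes Nqo1 and Hmox1, both on chromosome 8, were the least abundant members. Nqo1, a quinone reductase gene, had 5.71, 4.26, 3.35 and 2.65 CPM in KU55933 1 to 4, against 3.36, 3.41, 4.03 and 2.92 CPM in vehicle 1 to 4. The KU55933 libraries spanned the vehicle range, with KU55933 1 and 2 on top, and the log2 change of 0.22 ± 0.22 (SE), at an adjusted p of 0.5 from edgeR, was -0.19 without these libraries. Hmox1, which encodes the inducible enzyme that degrades haem, had 3.77, 3.24, 3.91 and 5.13 CPM in KU55933 1 to 4, against 5.35, 4.87, 3.72 and 5.11 CPM in vehicle 1 to 4. Its groups overlapped, and its log2 change was -0.25 ± 0.17 (SE), with an adjusted p of 0.317 from edgeR. Under the offset edgeR gave 0.11 for Nqo1 (adjusted p = 0.84) and -0.14 for Hmox1 (0.701).

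**Figure D2:**
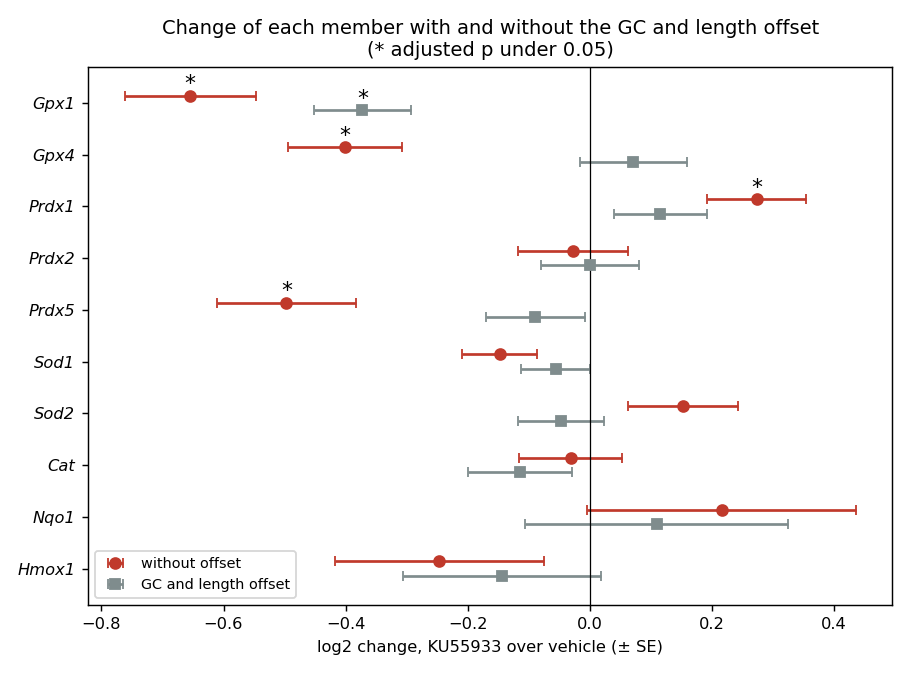
Log2 change of each member, KU55933 over vehicle, with its standard error, without an offset (red circles) and with the GC and length offset (grey squares). Asterisks mark an adjusted p under 0.05 from edgeR, which 4 genes reach without the offset and Gpx1 alone reaches with it.

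The members' GC content is given beside their changes because the trend on it differed between the groups. The 3 fallen genes had 55.7% (Gpx1), 57.1% (Prdx5) and 57.8% GC (Gpx4), the highest of the 10, and the risen gene Prdx1 had the lowest. With the trend taken out, Gpx1 stood at -0.37, Prdx5 at -0.09 and Gpx4 at 0.07 on the log2 scale. How far the GC trend accounts for the separate genes was not tested beyond the offset.

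**Figure D3:**
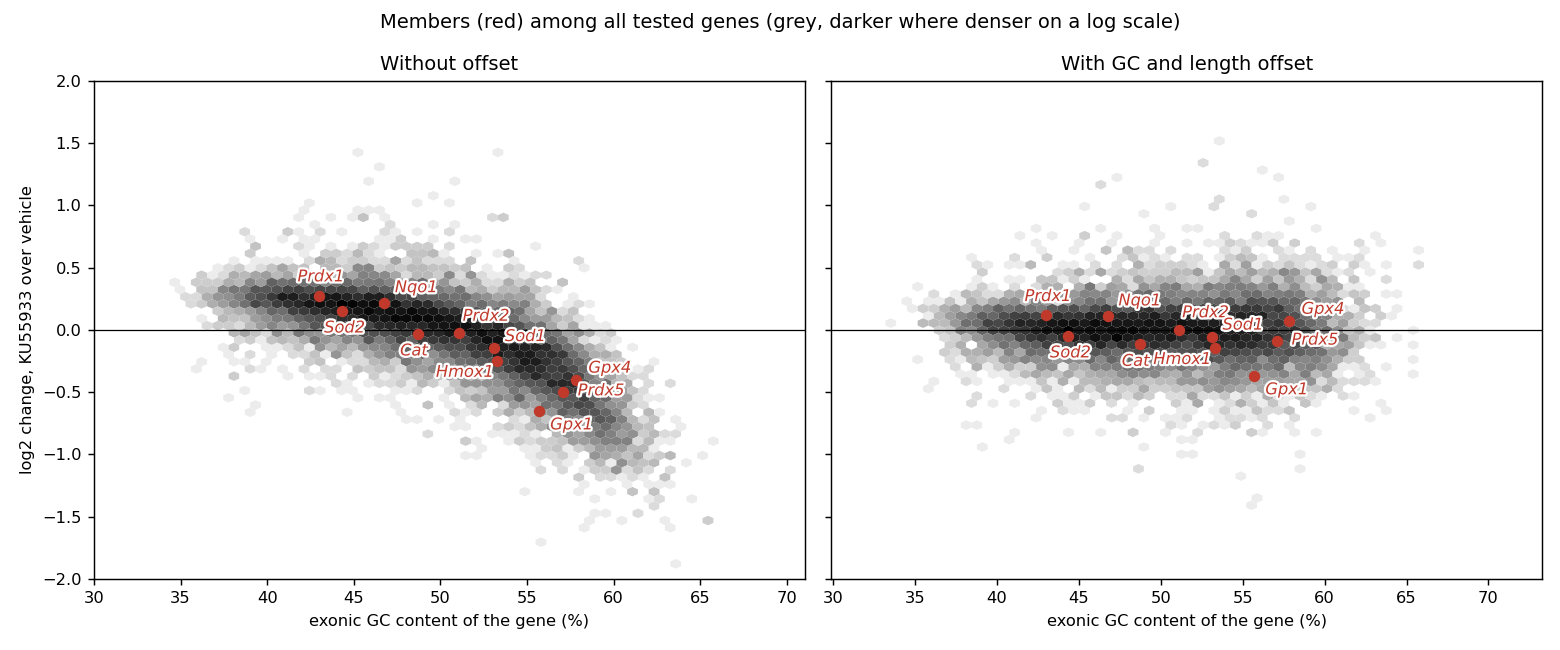
Log2 change, KU55933 over vehicle, against exonic GC content in percent, without an offset (left) and with the GC and length offset (right). Grey hexagons hold the tested genes whose change lies within the plotted range, and the 10 members are red. Without the offset Gpx1, Gpx4 and Prdx5 lie low at 55.7 to 57.8% GC, and with it Gpx1 at -0.37 is the member farthest from 0.

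Ordered by level per transcript length, in TPM (counts per base of transcript, scaled to a common total), Sod1 and Gpx4 were the most abundant members in both groups. Sod1 averaged 367 ± 11.2 TPM in KU55933 and 402 ± 15.2 TPM in vehicle, and Gpx4 338 ± 24.3 TPM in KU55933 and 372 ± 21.4 TPM in vehicle (SD, n = 4 each). Prdx2 followed Gpx4 in KU55933, with 324 ± 13.3 TPM, and lay at 293 ± 15.1 TPM in vehicle, while Prdx5 had 269.6 ± 27.2 TPM in KU55933 and 307 ± 17.2 TPM in vehicle. Neighbours in this order from Sod1 down to Prdx5 differed by less than their summed SDs in KU55933, apart from Prdx2 and Prdx5, and in vehicle the same held apart from Gpx4 and Prdx5. Prdx1 came next with 207 ± 14.8 TPM in KU55933 and 169 ± 7.63 TPM in vehicle. Sod2 had 112 ± 10.1 TPM in KU55933 and 97.0 ± 4.20 TPM in vehicle, and its high CPM went with a mean transcript length of 5030 bases. Gpx1 averaged 60.4 ± 5.30 TPM in KU55933 and 79.4 ± 6.91 TPM in vehicle, and Cat 48.4 ± 3.14 TPM in KU55933 and 48.7 ± 2.36 TPM in vehicle. Nqo1 (6.27 ± 2.01 TPM in KU55933 and 5.31 ± 0.751 TPM in vehicle) and Hmox1 (6.24 ± 1.11 TPM in KU55933 and 7.31 ± 1.01 TPM in vehicle) were last and did not differ from each other beyond their summed SDs in KU55933. The other neighbours from Prdx5 down lay further apart than their summed SDs in both groups. The KU55933 and vehicle values of Gpx4, apart in CPM, overlapped in TPM (302 to 356 in KU55933 and 345 to 398 in vehicle). Those of Prdx5 did too (235 to 299.6 in KU55933 and 296.5 to 332 in vehicle), while Gpx1, Prdx1 and Sod1 stayed apart. The gene test used summed counts and not counts per base.

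The isoforms of 4 members changed far more than the gene sums. In Gpx1, Gpx4, Prdx2 and Prdx5 the isoform that led in vehicle fell in KU55933, and in Gpx4, Prdx2 and Prdx5 shorter isoforms rose. Per transcript, edgeR called 9 of the 33 tested isoforms, against 6.76% of all transcripts, 4 of them higher (1.06% of all) and 5 lower (5.7% of all). The groups did not overlap in 11 of the 33, against 18.3% of all transcripts. Usage here is a transcript's log2 change set against that of its gene, tested with edgeR's diffSpliceDGE, and not a test of its share of counts. It changed for 7 of 30 tested isoforms, against 3.39% of all transcripts. It was higher for 4 (1.25% of all) and lower for 3 (2.15% of all). Under the offset 5 isoforms were called by level, against 2.06% of all transcripts, 3 of them higher (1.05% of all) and 2 lower (1.01% of all). By usage 6 were called under the offset, against 4% of all, 4 of them higher (2.05% of all) and 2 lower (1.95% of all). Without KU55933 1 and 2 edgeR called 4 isoforms by level, both named isoforms of Gpx4, Prdx2 ENSMUST00000164807 and Prdx5 ENSMUST00000025904. The counts per isoform are estimates that split shared reads, and the uncertainty of that split was not used here. How evenly reads covered the 5′ and 3′ ends of these transcripts in each library was not measured here. A shift between isoforms that differ at an end therefore cannot be told apart from a shift in that coverage.

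Gpx4 showed the shift in every library. The transcript ENSMUST00000105372, whose coding sequence begins with the leader for import into mitochondria, had 1233, 690, 1889 and 1675 estimated counts in KU55933 1 to 4, against 6664, 5559, 5573 and 5277 in vehicle 1 to 4. The shorter ENSMUST00000183037, which starts in the first intron of the longer form and lacks the leader, had 2715, 2474, 2401 and 2529 counts in KU55933 1 to 4, against 361, 354, 227 and 127 in vehicle 1 to 4. Neither pair of groups overlapped. The longer form took 33.9% ± 9.81 of the gene's counts in KU55933 and 94.4% ± 1.02 in vehicle (SD, n = 4 each), and the shorter form 65.2% ± 9.62 in KU55933 and 4.30% ± 1.58 in vehicle. The log2 changes in level were -1.88 for the longer form (adjusted p = 0.00699 from edgeR) and 3.45 for the shorter (adjusted p = 0.00202), and under the offset -1.13 (adjusted p = 0.0483) and 3.86 (adjusted p = 0.00489). Usage was called for both (adjusted p = 0.00104 and 9.6e-09 from edgeR), with the offset for the shorter form only, the longer having an adjusted p of 0.0614.

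In Gpx1 both isoforms called by level were lower, and none was called higher. ENSMUST00000082429, which encodes the full enzyme, had 195, 168, 215 and 183 counts in KU55933 1 to 4, against 578, 563, 939 and 851 in vehicle 1 to 4, and changed by -1.75 on the log2 scale (edgeR adjusted p = 0.00403), or by -1.16 under the offset (0.0413). ENSMUST00000191997 had 0, 0, 4 and 0 counts in KU55933 1 to 4, against 20, 15, 148 and 132 in vehicle 1 to 4. Its call (adjusted p = 0.0332 from edgeR) ended without KU55933 1, 2, 3 or 4 or vehicle 3 or 4 (adjusted p up to 0.11), and under the offset the adjusted p was 0.0748, while its usage was called with each library left out. ENSMUST00000193987 was not called, with 442, 374, 515 and 504 counts in KU55933 1 to 4, against 566, 557, 272 and 167 in vehicle 1 to 4. In the vehicle libraries 1 and 2, whose GC slopes were the smaller, this isoform was high and the other 2 isoforms were low. The full-length form took 29.2% ± 1.94 of Gpx1 counts in KU55933 and 60.5% ± 12.8 in vehicle (SD, n = 4 each), and its usage did not pass (adjusted p = 0.375 from edgeR).

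Prdx2 was divided differently in the groups under a like sum. ENSMUST00000164807 had 1716, 1828, 1578 and 1890 counts in KU55933 1 to 4, against 0 in each of the 4 vehicle libraries. Its 49.3 ± 5.01 CPM in KU55933 (SD, n = 4) stood at least 662-fold higher than the level that 3 counts in each vehicle library would give, a bound that covers counting error only and not the split of reads between isoforms (adjusted p = 9.59e-05 from edgeR). ENSMUST00000005292 had 2711, 1685, 3013 and 3328 counts in KU55933 1 to 4, against 6434, 5768, 5480 and 5039 in vehicle 1 to 4. These isoforms share the whole coding sequence of 594 bases. ENSMUST00000164807 shares 1174 bases with ENSMUST00000005292 and has 1 base that the latter lacks. Its counts therefore rest almost wholly on how shared reads were split. ENSMUST00000005292 has a further first exon upstream, which lies in the untranslated region, and its last exon ends further downstream. ENSMUST00000005292 took 44.9% ± 7.61 of Prdx2 counts in KU55933 and 80.4% ± 0.859 in vehicle, and its level changed by -0.88 on the log2 scale (adjusted p = 0.029 from edgeR, and up to 0.0902 where KU55933 1 or 3 or any vehicle library was left out). Under the offset ENSMUST00000164807 stayed called (adjusted p = 0.000246 from edgeR) and ENSMUST00000005292 had an adjusted p of 0.0902. Its lower usage (adjusted p = 0.00634 from edgeR) was lost without KU55933 2 (0.0848) and without the filter on low counts (0.0509).

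Prdx5 divided into 3 forms. ENSMUST00000025904, whose long first exon encodes the mitochondrial leader, had 2236, 1444, 2311 and 2721 counts in KU55933 1 to 4, against 5772, 5882, 5437 and 4978 in vehicle 1 to 4. Its level changed by -1.14 on the log2 scale (edgeR adjusted p = 0.0088), or by -0.43 under the offset (0.254). Its usage did not pass (adjusted p = 0.377 from edgeR, and 0.943 under the offset). ENSMUST00000149261, which starts within the first intron and extends the next exon upstream, had 716, 811, 1013 and 967 counts in KU55933 1 to 4, against 504, 543, 274 and 405 in vehicle 1 to 4. ENSMUST00000238095, annotated as incomplete at its 5′ end, had 486, 402, 545 and 514 counts in KU55933 1 to 4, against 0, 15, 0 and 41 in vehicle 1 to 4. It shares all of its 679 bases with ENSMUST00000025904, so its counts rest largely on how shared reads were split. Both rose, ENSMUST00000149261 by 1.21 on the log2 scale (adjusted p = 0.014 from edgeR) and ENSMUST00000238095 by 5.29 (adjusted p = 0.03), and their shares were 23.4% and 13.0% in KU55933 and 6.84% and 0.233% in vehicle. The call of ENSMUST00000238095 by level ended without any single KU55933 library or vehicle 2 or 3 (adjusted p up to 0.0774) and under the offset (0.0526), that of ENSMUST00000149261 without vehicle 4 (0.05). The usage of both was called with each library left out.

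**Figure D4:**
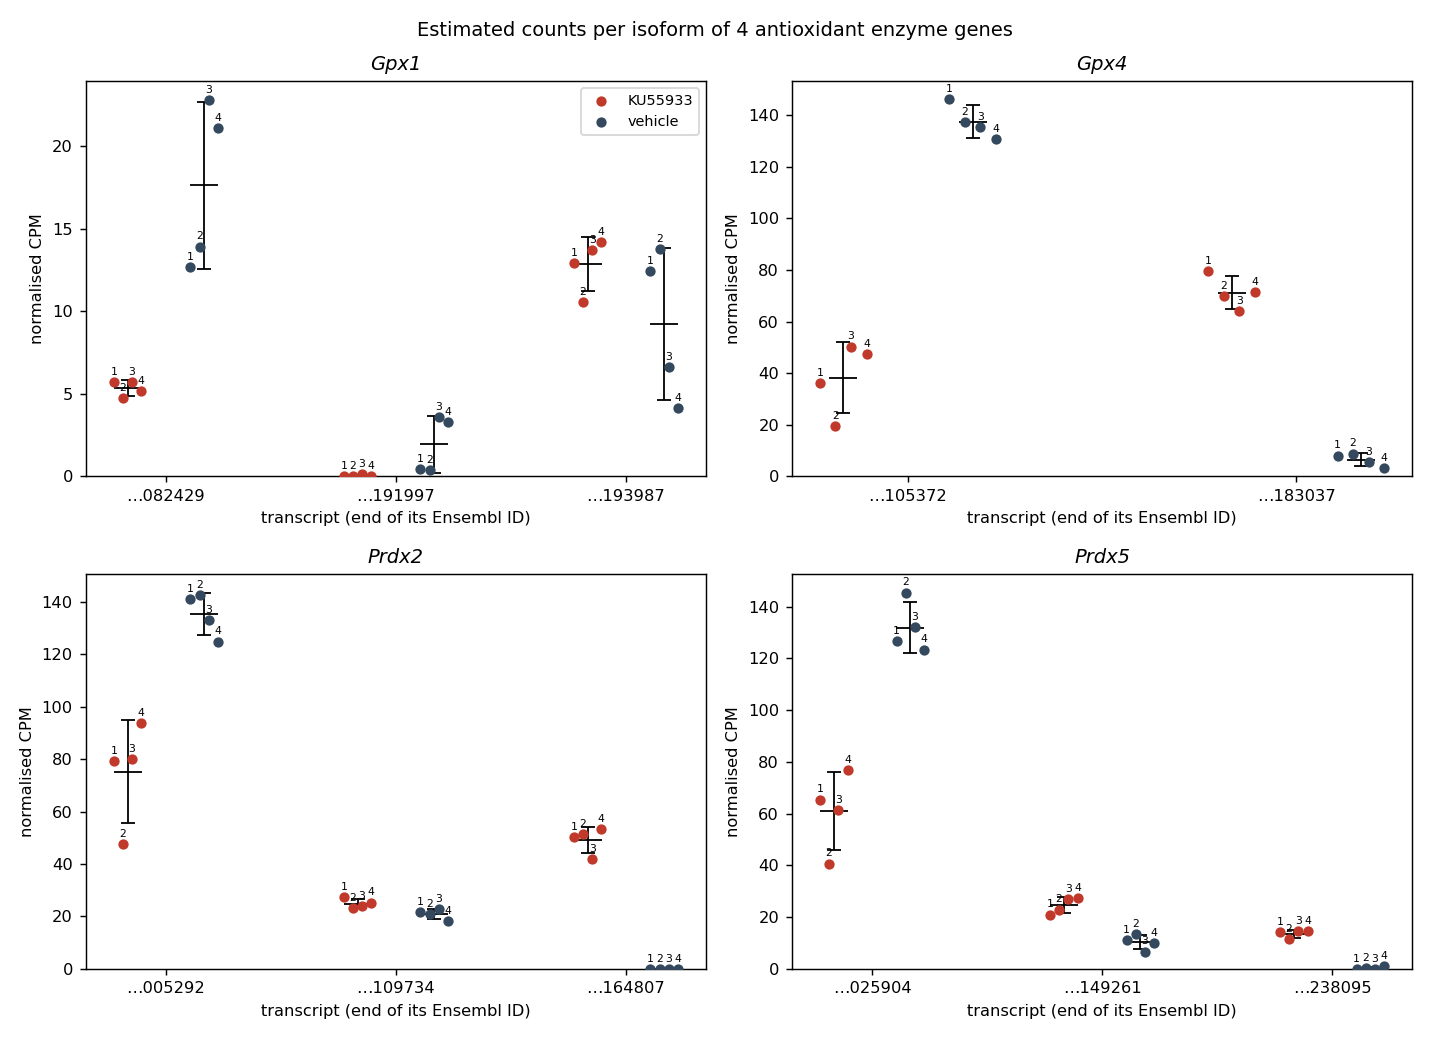
Normalised CPM of the main isoforms of Gpx1, Gpx4, Prdx2 and Prdx5, named by the last digits of their Ensembl IDs, in the 4 KU55933 libraries (red, left of each pair) and the 4 vehicle libraries (dark, right), with library numbers, means and SD bars. Gpx4 ENSMUST00000183037 lies at 63.9 to 79.4 CPM in KU55933 and 3.15 to 8.75 CPM in vehicle, and Prdx2 ENSMUST00000164807 is at 0 in every vehicle library.

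In all 4 genes the most abundant isoform called lower carries a first stretch, rich in GC, that the isoform set beside it lacks. By GENCODE mouse release 21, these are the first 228 bases of Gpx4 ENSMUST00000105372 (68.4% GC, against 56.4% for the bases shared with ENSMUST00000183037) and the first 648 bases of Prdx5 ENSMUST00000025904 (62.8%, against 55.4% for those shared with ENSMUST00000149261). In Prdx2 they are the first 152 bases (62.5%, against 51.0% shared) and in Gpx1 the first 222 bases (61.7%, against 54.7% shared with ENSMUST00000193987, a pair chosen after its values were seen). All bases that only the fallen isoform has, later stretches included, had 48.2% GC in Prdx2, below the shared ones. They had 64.8% in Gpx4, 60.7% in Prdx5 and 61.1% in Gpx1. Each of these lower isoforms also reaches further at its 3′ end than the isoform set beside it here. Gpx1 ENSMUST00000191997, also called lower, differs. It starts 340 bases from the gene's first start, against 151 for ENSMUST00000082429, and so lacks most of those 222 bases. At its 3′ end it stops where ENSMUST00000193987 does. Prdx5 ENSMUST00000238095 ends where ENSMUST00000025904 does. Over all transcripts tested for usage, the 860 with lower usage in KU55933 had a median of 67% GC in their first 200 bases, the 499 with higher usage 57.5%, and all 40078 tested ones 58%. In the same order, median GC of the whole transcript was 56.6%, 54.0% and 50.6%, and median length 2337.5, 1273.5 and 2111 bases. Usage moved up for 1 transcript and down for another in 135 of 10086 genes with several tested transcripts (1.34%), and Gpx4 and Prdx2 were among them. Not every isoform with such a stretch was lower. Prdx2 ENSMUST00000109734, whose first exon contains those 152 bases, averaged 24.9 ± 1.78 CPM in KU55933 and 20.9 ± 2.00 CPM in vehicle (SD, n = 4 each) without overlap, and was not called (adjusted p = 0.328 from edgeR). Prdx5 ENSMUST00000173091, which keeps the coding bases of the leader, averaged 4.24 ± 1.45 CPM in KU55933 and 3.68 ± 1.25 CPM in vehicle. The part of this GC difference in the isoform calls was not tested. The offset uses the GC content and length of the whole transcript, so it cannot adjust for the first stretch alone. Under it the rises of Gpx4 ENSMUST00000183037, Prdx2 ENSMUST00000164807 and Prdx5 ENSMUST00000149261 were called.

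**Figure D5:**
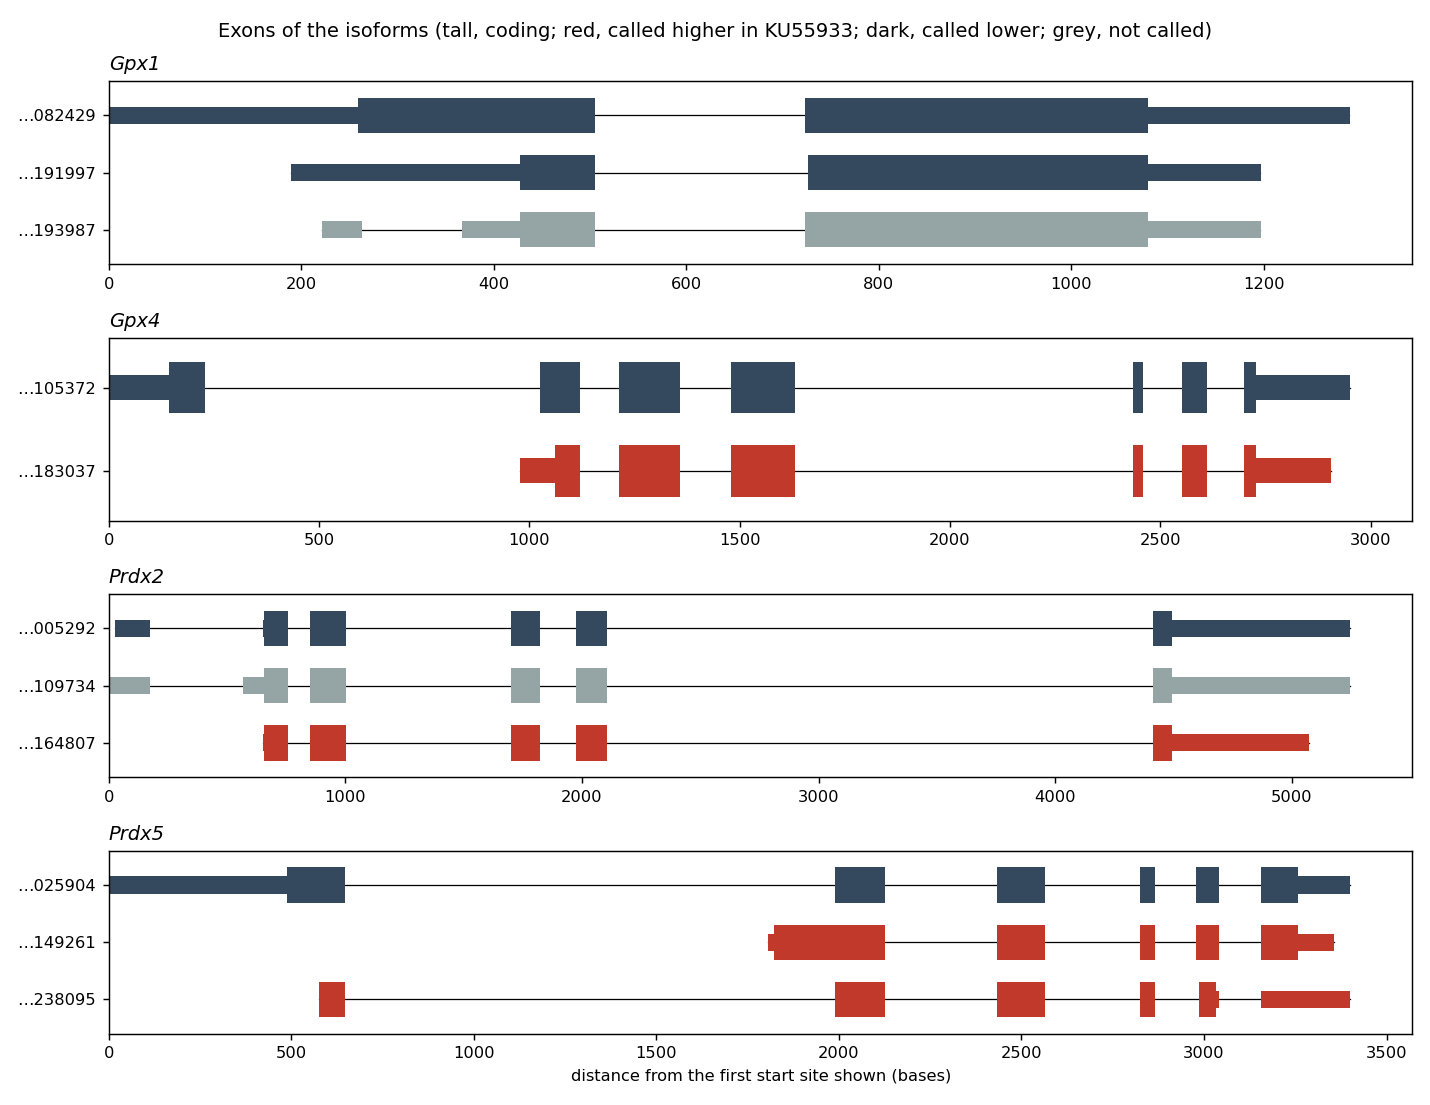
Exons of the same isoforms on GENCODE gene models (tall boxes, coding; low boxes, untranslated; lines, introns), with the distance in bases from the first start site shown. Isoforms called higher in KU55933 are red, those called lower dark and those not called grey, and the dark isoforms of Gpx4, Prdx2 and Prdx5 begin with first exons that the red ones lack or hold only in part.

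The coding letters that set these isoforms apart are shown as 1 part of the annotated difference between the fallen isoforms and those set beside them. Untranslated bases make up the rest, and in Gpx1 no isoform was called higher. Those of Gpx4 and Prdx5 begin with the start codon of the isoform named beside them, in capitals. The Gpx4 stretch of 84 bases ends in the atg at which the cytosolic enzyme is known to start, so that ENSMUST00000183037, with 471 coding bases against 591, begins beyond both starts. The Prdx5 stretch of 159 bases is absent from ENSMUST00000149261, which opens with 168 bases of its own. The Gpx1 stretch holds bases 264 to 367 of ENSMUST00000082429, at 74.0% GC, and is spliced out of ENSMUST00000193987, whose annotated coding sequence of 435 bases then starts further downstream.
Gpx4 ENSMUST00000105372: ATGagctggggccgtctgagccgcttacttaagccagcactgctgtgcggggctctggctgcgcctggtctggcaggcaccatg
Prdx5 ENSMUST00000025904: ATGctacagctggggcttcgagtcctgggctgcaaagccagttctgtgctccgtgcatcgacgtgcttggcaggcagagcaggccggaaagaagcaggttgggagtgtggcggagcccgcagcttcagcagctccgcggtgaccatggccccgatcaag
Prdx5 ENSMUST00000149261: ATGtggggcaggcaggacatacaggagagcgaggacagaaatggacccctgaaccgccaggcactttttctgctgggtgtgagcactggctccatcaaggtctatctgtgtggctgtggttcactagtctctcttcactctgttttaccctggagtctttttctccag
Gpx1 ENSMUST00000082429: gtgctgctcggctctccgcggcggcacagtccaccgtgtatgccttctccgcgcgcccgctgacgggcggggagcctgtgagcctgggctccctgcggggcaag

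Both glutathione peroxidases read an internal TGA codon as selenocysteine, the residue of their active site. It is shown in capitals, with 12 bases on either side, because the isoforms differ in whether their annotated coding sequence holds it. In Gpx4 it is codon 73 of ENSMUST00000105372 and codon 33 of ENSMUST00000183037, so the risen isoform keeps it. In Gpx1 it is codon 47 of ENSMUST00000082429, and no TGA in frame was found in the annotated coding sequence of ENSMUST00000193987. The latter transcript still contains these bases, upstream of its annotated start.
Gpx1: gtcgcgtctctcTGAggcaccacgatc
Gpx4: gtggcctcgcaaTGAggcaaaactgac

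The other tested isoforms of the members were not called by level or by usage. Prdx1 ENSMUST00000135573, with 76.5% of that gene's counts in KU55933 and 76.0% in vehicle, had 115, 94.6, 88.9 and 87.8 CPM in KU55933 1 to 4, against 86.9, 78.2, 76.4 and 75.1 CPM in vehicle 1 to 4. These groups did not overlap, while the log2 change of 0.25 had an adjusted p of 0.258 from edgeR, so that the rise of Prdx1 passed in the gene sum and not in any isoform. Sod1 ENSMUST00000023707 took 89.95% of its gene's counts in KU55933 and 90.5% in vehicle, and Sod2 ENSMUST00000007012 89.0% in KU55933 and 87.4% in vehicle. Cat and Nqo1 have a single transcript in the table, and the second Hmox1 transcript did not pass the filter.

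Promoters of 9 members were found among RefSeq sequences for GRCm38.p6, and were searched on both strands for TGACNNNGC, the core of the antioxidant response element that NRF2 binds. It was present in 2 of 12 windows of the members, which reach 250 bases before and 50 after the start, and in 12.4% of all 32851 such windows. The matches were those of Prdx1 and Sod1, and Nqo1 had none in this window. The bases upstream of Prdx1, the risen member, are shown from chr4:116685349-116685598 on the plus strand, with the match on the opposite strand in capitals, beginning 133 bases before the start.
Prdx1: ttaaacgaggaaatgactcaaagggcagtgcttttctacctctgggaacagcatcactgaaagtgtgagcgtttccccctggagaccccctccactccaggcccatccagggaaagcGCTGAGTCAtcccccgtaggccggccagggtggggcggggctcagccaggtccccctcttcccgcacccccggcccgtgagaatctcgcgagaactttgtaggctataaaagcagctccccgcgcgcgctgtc

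Around the members, 35 of 152 tested genes in 14 lists of related pathways were called, against 21.6% of all genes, 11 of them higher (6.92% of all genes) and 24 lower (14.6%). Their median log2 change was -0.03, beside 0.01 over all genes. Under the offset 2 were called, Srxn1 higher and Selenoh lower, and without KU55933 1 and 2 edgeR called 11. Counts below are genes called in edgeR's test of all genes, and each gene with values is the called one with the smallest p of its list, or was called with the offset, beside Nfe2l2 and Keap1.

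In the thioredoxin system, which recharges the peroxiredoxins, 1 of 9 genes passed and was higher. Srxn1, which encodes sulfiredoxin, the enzyme that repairs over-oxidised peroxiredoxins, had 102, 84.6, 85.0 and 93.6 CPM in KU55933 1 to 4, against 75.0, 76.4, 74.4 and 78.8 CPM in vehicle 1 to 4. The groups did not overlap, and the log2 change was 0.26 ± 0.08 (SE), with an adjusted p of 0.0338 from edgeR, and 0.38 ± 0.08 under the offset (adjusted p = 0.0392). The call without the offset ended without KU55933 1 or vehicle 2, 3 or 4 (adjusted p up to 0.101). Of the other peroxidases and dismutases 1 of 8 fell, Sod3, the extracellular superoxide dismutase, at -0.40 on the log2 scale (edgeR adjusted p = 0.0465) and -0.34 under the offset (0.188). Leaving out any library but KU55933 1 ended that call (up to 0.135).

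The glutathione genes were divided, with 2 of 14 higher and 5 lower in synthesis, reduction and glutaredoxins and 3 of 15 higher among the transferases. Oplah, which returns oxoproline to the glutathione cycle, averaged 19.5 ± 2.85 CPM in KU55933 and 29.1 ± 1.15 CPM in vehicle (SD, n = 4 each; adjusted p = 0.00395 from edgeR), and its log2 change of -0.58 was -0.07 under the offset. Gsta4, the transferase for the lipid peroxidation product hydroxynonenal, averaged 35.97 ± 2.64 CPM in KU55933 and 26.7 ± 2.66 CPM in vehicle without overlap. Its log2 change was 0.43 (adjusted p = 0.0101 from edgeR) and 0.39 with the offset (adjusted p = 0.0505).

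Of the NRF2 regulators 1 of 11 rose and 2 fell, and of the NRF2 targets beside the members 3 of 18 rose and 3 fell. Nfe2l2, the gene of NRF2, averaged 17.8 ± 1.71 CPM in KU55933 and 13.8 ± 2.20 CPM in vehicle (SD, n = 4 each), and edgeR gave a log2 change of 0.37 with an adjusted p of 0.0494. That call ended without KU55933 1, 2 or 3 or vehicle 2, 3 or 4 (up to 0.137), and with the offset the adjusted p was 0.384. Keap1 averaged 46.3 ± 5.07 CPM in KU55933 and 63.6 ± 2.46 CPM in vehicle, with a log2 change of -0.46 (edgeR adjusted p = 0.00479) that was 0.11 with the offset (adjusted p = 0.449). Among genes of haem breakdown and iron storage 4 of 7 fell, against 14.6% of all genes, and their list's median log2 change of -0.29 was 0.00 under the offset, where edgeR gave the 7 genes adjusted p of 0.191 or more. They were led by Ftl1, the ferritin light chain gene, at -0.50 on the log2 scale (edgeR adjusted p = 0.00522) and 0.00 with the offset.

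Selenoproteins other than the members showed 2 of 12 lower. Selenoh, which encodes a nuclear selenoprotein, had 4.86, 3.47, 3.78 and 3.81 CPM in KU55933 1 to 4, against 6.80, 5.79, 8.75 and 7.83 CPM in vehicle 1 to 4, without overlap. Its log2 change was -0.87 ± 0.16 (SE), with an adjusted p of 0.00413 from edgeR, and -0.74 ± 0.15 under the offset (adjusted p = 0.0392), so that Gpx1 and Selenoh were selenoprotein genes called lower in both fits. Selenom, which encodes a selenoprotein of the endoplasmic reticulum, has 61.5% GC and averaged 28.6 ± 5.24 CPM in KU55933 and 58.0 ± 5.95 CPM in vehicle. Its log2 change was -1.02 (edgeR adjusted p = 0.000806), or -0.15 with the offset. In selenoprotein synthesis 1 of 11 rose and 1 fell, Eefsec, the elongation factor for selenocysteine, at -0.42 on the log2 scale (edgeR adjusted p = 0.0251, up to 0.0776 without KU55933 1 or 2 or vehicle 2, 3 or 4) and -0.07 under the offset (0.682).

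In the remaining lists falls were as many as rises or more. Of 14 genes of NADPH supply 1 rose and 1 fell, Pgls, a pentose phosphate enzyme gene (64.0% GC), at -0.78 (adjusted p = 0.0189 from edgeR) and 0.46 with the offset (adjusted p = 0.133). Its call ended without KU55933 2 or vehicle 3 or 4 (up to 0.0602). Of 23 peroxisome genes 1 rose and 5 fell, among them Pex6, an import factor gene (63.0% GC), at -0.89 (adjusted p = 0.0011 from edgeR) and 0.15 with the offset. Among 11 genes of ferroptosis defence and lipid peroxide sources 1 fell, Dhodh, which reduces ubiquinone in mitochondria, at -0.49 (adjusted p = 0.00726 from edgeR) and -0.22 with the offset. Of 8 oxidase genes 1 rose and 1 fell, Cyba, a subunit gene of the NADPH oxidases, at -0.83 (adjusted p = 0.0186 from edgeR, up to 0.0633 without vehicle 2 or 3) and -0.22 with the offset. The 5 genes of methionine sulfoxide and DJ-1 repair had adjusted p from 0.0964 (Pon2) to 0.926 (Msrb2) from edgeR.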

How the data were processed

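For each transcript the deposited table gives an estimated count (an expected count) as a whole number. The submitters' processing notes name Salmon 1.4.0, DESeq2 1.32.0, FastQC 0.11.9 and the mouse build GRCm39, and the sources used here state neither the rounding nor a filter on transcripts. Libraries were stranded (TruSeq Stranded mRNA, per the labels' protocols).

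Transcript counts were summed per gene, kept with edgeR's filterByExpr, scaled by TMM and compared, KU55933 over vehicle, by the two-sided quasi-likelihood F test of edgeR 4.0.16 (robust dispersions; limma 3.58.1 and R 4.3.3) at a Benjamini-Hochberg adjusted p of 0.05. Single transcripts were tested in the same way, and usage was tested with diffSpliceDGE. GC content and length came from GENCODE mouse release 21 transcripts, which matched 99.7% of the transcripts and 99.82% of the counts, and splines of 6 (GC) and 5 (length) degrees of freedom per library gave the offset, with 15470 genes tested. Exon positions came from the same release, and no coordinates were converted between builds. Tables and figures used pandas 2.3.3, matplotlib 3.10.9 and NumPy 2.4.6 under Python 3.11.15. The gene fits with and without the offset, and the transcript and usage fits without it, were first run on simulated counts with known changes. Total counts of 34190440 to 46630341 per library set the precision, and the floor of 3 counts covers counting error only. Replicates of a group differed by 14.6 to 62.4 chi-square units per degree of freedom, so none was a duplicate.

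The members, gene lists and tests were chosen with earlier results of these data known. The genes to be named were all members and their tested transcripts, up to 4 called genes with the smallest p of each list with and without the offset, near-identical copies, and choroid plexus and red blood cell markers. Of the 13 marker lists fixed, the text gives those that bear on a result: among the rest, edgeR called lower 1 of 9 microglia and macrophage, 2 of 8 astrocyte, 2 of 5 oligodendrocyte precursor, 3 of 9 endothelial and mural, 1 of 6 dentate granule, 3 of 7 CA1 and CA3 and 3 of 7 interneuron markers. It called higher 1 of 10 choroid plexus and 2 of 7 thalamic and subcortical markers, and of 6 hippocampal excitatory ones 1 was higher and 3 lower. Of all genes 6.92% were called higher and 14.6% lower. Under the GC and length offset no marker of the 13 lists was called. Of 8 oligodendrocyte and 5 ependyma markers the summed levels were 4315 to 5828 and 20.99 to 27.5 CPM in KU55933, and 3587 to 8180 and 21.6 to 28.9 CPM in vehicle. Alternatives were other scalings and filters, non-robust dispersion, DESeq2 1.42.0, limma-voom, a replicate block, GC offsets, a threshold of 0.1, and libraries left out.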

Additional observations from a re-analysis of the deposited data

Results flagged for a closer look

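In 8 of 85 groups of 4 libraries examined, over genes and tested transcripts of the members, the highest or lowest library stood apart from the rest, its gap to the nearest one taking a larger part of the group's range than Dixon's critical value for 4 samples. Chance gives such a gap in about 1 in 20 groups.

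At gene level these were Gpx4 in KU55933 2, at 90.4 CPM the lowest of its group, and Prdx5 in vehicle 2, at 165 CPM the highest of its group. Among isoforms that changed, Prdx5 ENSMUST00000238095 was lowest in KU55933 2, at 11.3 CPM, and Gpx1 ENSMUST00000191997 had its only KU55933 counts in KU55933 3, at 0.106 CPM. Among isoforms that were not called, Sod1 ENSMUST00000232505, a retained-intron form, was low in KU55933 1 at 3.98 CPM, and Prdx2 ENSMUST00000127215, also a retained-intron form, was low in KU55933 4 at 7.16 CPM. Prdx2 ENSMUST00000109733 was high in vehicle 1 at 0.79 CPM, and Gpx4 ENSMUST00000136081 was low in vehicle 2 at 0.0495 CPM.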

How the results depend on the processing

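The count of 4 called members was the same under the other scalings, filters and dispersion, limma-voom and a threshold of 0.1, and DESeq2 called 5, adding Sod1. It was 1 with the GC and length offset, with or without a replicate block, 0 with a GC offset alone (Gpx1 then at an adjusted p of 0.051), and 2 without KU55933 1 and 2. Of these, called higher were 0 under each offset and without KU55933 1 and 2, and called lower 1, 1 and 0 under the offsets. Leaving out single libraries gave 3 to 5 members, 0 to 2 of them higher, and with the offset 0 to 1, and 0 were called with the offset without KU55933 1 and 2. Over all genes the count of 3338 was 305 with the offset, 802 with offset and block, 241 with GC alone, 1090 without KU55933 1 and 2, 5085 at a threshold of 0.1 and 1597 to 4348 with single libraries left out. The pathway count of 35 was 2, 11, 2 and 11 under the first 4 of these and 14 to 42 with single libraries left out. Called member transcripts, 9, were 5 with the offset and 4 without KU55933 1 and 2.

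Directions turned as follows, and the causes were not tested. With the GC and length offset, the same with a block, and GC alone, log2 changes were 0.0717, 0.0746 and 0.0485 for Gpx4, -0.0469, -0.0507 and -0.0268 for Sod2, 0.15, 0.16 and 0.16 for Pex6, 0.11, 0.11 and 0.12 for Keap1 and 0.46, 0.45 and 0.43 for Pgls. Ftl1 had 0.00121 and, with the block, 0.00226, and Prdx2 2.5e-05 with the offset and 0.0483 without KU55933 1 and 2, where Nqo1 had -0.19. With single libraries left out Prdx2 ranged from -0.0813 to 0.0411, Cat from -0.0877 to 0.0260 and Nqo1 from -0.00536 to 0.369.

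Same-numbered libraries deviated together with correlations of 0.294, 0.084, 0.0393 and 0.202, so the numbers were not taken as pairs. With the replicate block 4444 genes, the same number of members (1 higher, 3 lower), 45 pathway genes, 5 member transcripts and 6 by usage were called, and not every library correlated best with its own number.

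By CPM in place of TPM Sod2 had the highest values of the members. Depth limits Nqo1 and Hmox1, with 94 to 195 and 115 to 244 counts in their main transcripts, more than the rest.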
